A study of Mus musculus with 12 samples.

Results

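A set of 10 lipid droplet genes was followed in the livers of C57BL/6J mice: the perilipins Plin2, Plin4 and Plin5, the CIDE genes Cidea, Cideb and Cidec, the FIT genes Fitm1 and Fitm2, the lipase gene Pnpla2 and its inhibitor gene G0s2. They were taken by name from the 48526 genes of the deposited table. All 10 had a row in that table, and 9 of the 10 were among the 11968 genes that passed the authors' filter on low counts and were tested; the exception was Cidea. The study asked how simvastatin acts in females and in males. Poly(A) RNA was sequenced from 12 whole livers of young adult mice, 3 in each of 4 groups: female chow, female statin, male chow and male statin. All mice were on their diet for 4 weeks, no transgene or other treatment was named, and each liver came from a different mouse. The statin groups received chow with 0.1 g simvastatin, an inhibitor of HMG-CoA reductase, per kg; the sample labels relate this dose to body weight and the methods relate it to food weight.

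A lipid droplet is a store of triglyceride and cholesterol ester wrapped in a single layer of phospholipid. FIT proteins in the endoplasmic reticulum help new droplets to form, perilipins coat the droplet and limit access of lipases, CIDE proteins let droplets fuse and grow, and the lipase ATGL, encoded by Pnpla2, takes the first fatty acid from triglyceride. In hepatocytes many genes of this kind respond to fatty acids through the nuclear receptor PPAR-alpha.

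Each liver had 46066381 to 60419223 counts, and levels are given as TMM-normalised CPM, that is, counts scaled to a common library total and then by edgeR's trimmed mean of M-values. Livers are listed in the order of their replicate numbers, which carry no rank. A floor of 3 counts was used, which in CPM was 0.0497 to 0.0651 depending on the liver and which reflects only the error of counting. The 8 hepatocyte markers summed to between 85164 and 164866 CPM in every liver. Of the 7 adipocyte markers, Lep, Plin1 and Retn had 3 or fewer reads in every liver, and 5 of the 6 skeletal muscle markers did too. These are bulk samples, in which fewer cells of a type and less RNA per cell cannot be told apart.

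The genes lie apart in the genome (build GRCm38, GENCODE vM21). Plin4 (chr17:56100591-56109803, minus strand) and Plin5 (chr17:56111601-56117596, minus strand) are neighbours, while Plin2 is at chr4:86648386-86670060 (minus strand). Fitm1 (chr14:55575617-55576954, plus strand) and Cideb (chr14:55754050-55758458, minus strand) share a chromosome, and Fitm2 is at chr2:163466379-163472629 (minus strand). G0s2 is at chr1:193272161-193273217 (minus strand), within an intron of Lamb3, Cidec at chr6:113424634-113435760 (minus strand) and Pnpla2 at chr7:141455198-141460743 (plus strand). Exons of a gene on the other strand overlap those of Plin4 (Hdgfl2), Cideb (Nop9), Fitm1 (Gm15932) and Fitm2 (2310001K24Rik). The kit kept strand, but the strand setting of the counting was not given in the sources used here, so reads of such pairs may not be separated. Gm15932 had group means between 0.0262 and 0.0834 CPM and 2310001K24Rik between 0.0549 and 0.179 CPM, far below the levels of Fitm1 and Fitm2 given next. Nop9 had group means of 15.1 to 19.3 CPM, against 201 to 224 for Cideb. Hdgfl2 had group means of 18.5 to 22.7 CPM, above the 3.08 to 9.16 of Plin4; whether its reads entered the Plin4 counts was not tested.

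Promoters of 9 of the 10 genes were in the RefSeq table of build GRCm38.p6. Shown are those of the 4 tested genes whose statin and chow livers did not overlap in females, and that of Plin2, the perilipin with the most reads. Each line gives the bases before both the RefSeq and the GENCODE start, 5′ to 3′ on the strand of the gene. Capitals mark letters found on either strand: AGGTCA, the half-site of nuclear receptors such as PPAR-alpha, and the GC box GGGCGG and the CCAAT box CCAAT.
Fitm1 (chr14:55575424-55575616, plus strand): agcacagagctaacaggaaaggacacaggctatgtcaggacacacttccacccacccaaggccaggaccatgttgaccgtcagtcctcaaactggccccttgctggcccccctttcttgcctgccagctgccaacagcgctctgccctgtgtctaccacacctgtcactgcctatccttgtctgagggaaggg
Fitm2 (chr2:163472630-163472879, minus strand): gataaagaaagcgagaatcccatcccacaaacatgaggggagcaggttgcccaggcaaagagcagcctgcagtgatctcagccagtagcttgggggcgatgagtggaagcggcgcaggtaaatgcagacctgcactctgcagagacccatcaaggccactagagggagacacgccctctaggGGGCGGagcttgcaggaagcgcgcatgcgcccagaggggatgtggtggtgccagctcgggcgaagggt
G0s2 (chr1:193273218-193273438, minus strand): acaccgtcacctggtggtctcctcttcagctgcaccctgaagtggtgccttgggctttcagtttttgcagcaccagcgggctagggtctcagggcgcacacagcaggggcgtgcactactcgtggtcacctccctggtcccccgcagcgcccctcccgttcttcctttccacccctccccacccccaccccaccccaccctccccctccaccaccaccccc
Cidec (chr6:113435761-113436010, minus strand): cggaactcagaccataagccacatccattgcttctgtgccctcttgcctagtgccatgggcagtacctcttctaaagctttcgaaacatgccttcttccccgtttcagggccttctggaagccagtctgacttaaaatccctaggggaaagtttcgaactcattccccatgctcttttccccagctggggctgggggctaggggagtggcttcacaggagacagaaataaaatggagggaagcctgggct
Plin2 (chr4:86670061-86670309, minus strand): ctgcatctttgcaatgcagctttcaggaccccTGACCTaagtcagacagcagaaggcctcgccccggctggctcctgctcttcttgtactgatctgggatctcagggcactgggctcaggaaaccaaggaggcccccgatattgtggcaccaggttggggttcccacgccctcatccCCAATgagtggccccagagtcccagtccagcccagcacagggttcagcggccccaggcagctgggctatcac
Within the 250 bases before the RefSeq start, AGGTCA was found for Plin2 at positions -218 to -213 on the opposite strand and for Plin5 at -170 to -165; 14% of all 32851 promoters in the table held it. A direct repeat of AGGTCA with any 1 base between both copies was found in none of the 9 genes' windows and in 0.0335% of all promoters. The STAT site TTCNNNGAA was found in none of the 9 and in 7.02% of all. GGGCGG was found before Fitm2 at -68 to -63, before G0s2 at -18 to -13 in bases that are not printed, and also before Plin5, Cideb and Pnpla2, against 32.7% of all promoters. The motifs are matches of letters only.

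Per length of exon, Cideb, G0s2 and Plin2 were the highest of the genes and Cidec, Plin4 and Cidea the lowest. Over the 12 livers, the mean level per length was 140 CPM per kb for Cideb, 113 for G0s2 and 109 for Plin2. Pnpla2 was at 32.1, Plin5 at 18.5, Fitm2 at 17.4 and Fitm1 at 12.6 CPM per kb. Plin4 and Cidec were at 1.10 and 1.06 CPM per kb, and Cidea at 0.0445. In share of the tested genes that lay lower, Plin2 stood at 96.3% and Plin4 at 20.8%.

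**Figure D1:**
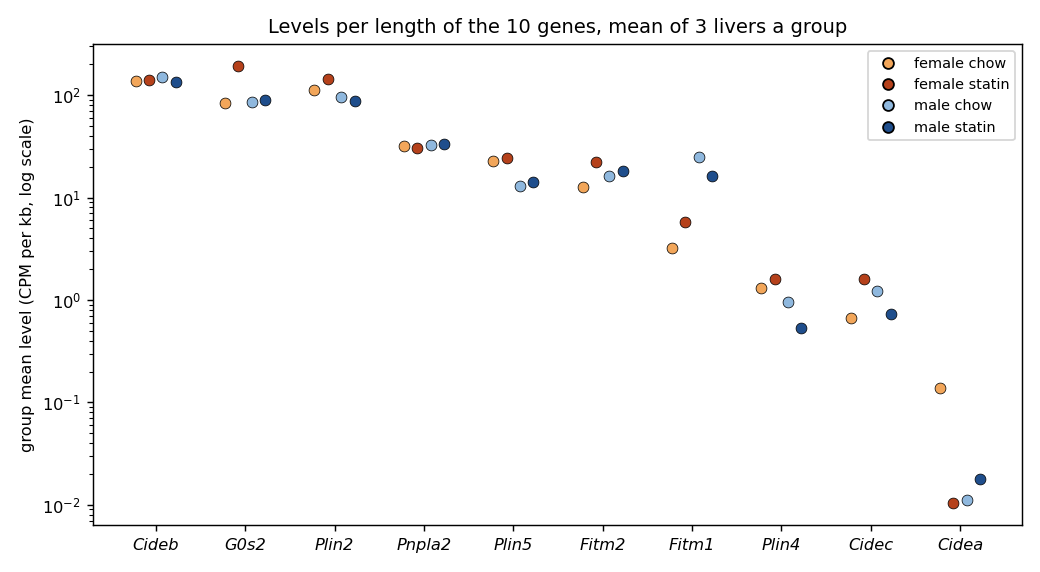
Group mean level per length (CPM per kb of exon, log scale) of the 10 genes, ordered by their mean over 12 livers; each point is the mean of 3 livers. Cideb, G0s2 and Plin2 lie near 100 CPM per kb, Fitm1 differs most between the sexes among the 9 tested genes, and Cidea, which was not tested, lies below all others.

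With simvastatin in females, 4 genes had higher levels in each statin liver than in any chow liver: the droplet-forming Fitm1 and Fitm2, the lipase inhibitor gene G0s2, and the fusion gene Cidec. None of the 9 tested genes passed the adjusted threshold in females (edgeR's quasi-likelihood test, Benjamini-Hochberg adjusted p under 0.05; 0.100% of all tested genes passed). The same 4 genes were at an unadjusted p under 0.05, all with higher levels on statin, against 10.5% of all tested genes in either direction and 5.93% in that direction. Cidec was not among them with limma at either pseudocount or with the replicate block, and was not tested under the stricter filter. Over all tested genes, 1256 were at an unadjusted p under 0.05, but 800 to 1845 with 1 liver left out and 808 with each sex alone. Groups did not overlap for 12% of all tested genes, and for 6.03% with statin higher. The median log2 fold change of the 9 genes was 0.38, beside 0.01 over all tested genes; with 1 liver left out it ranged from 0.27 (without female chow replicate 2) to 0.76 (without female chow replicate 1). Without female chow replicate 2, G0s2 and Fitm2 were the 2 genes at an unadjusted p under 0.05. In males none of the 9 passed the adjusted threshold, as did 0 of all 11968 genes, and none was at an unadjusted p under 0.05, against 1.96% of all (234 genes, but 703 without male statin replicate 1 and 127 without male statin replicate 2). The male groups overlapped for each of the 9, while 7.95% of all genes had groups that did not. The male median was -0.12, beside 0.00, and ranged from -0.25 (without male statin replicate 1) to 0.00 (without male chow replicate 2). Plin4 and Fitm1 were at an unadjusted p under 0.05 in males when male chow replicate 1 or male statin replicate 3 was left out, and 1 of them when male chow replicate 3 or female chow replicate 1 was.

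**Figure D2:**
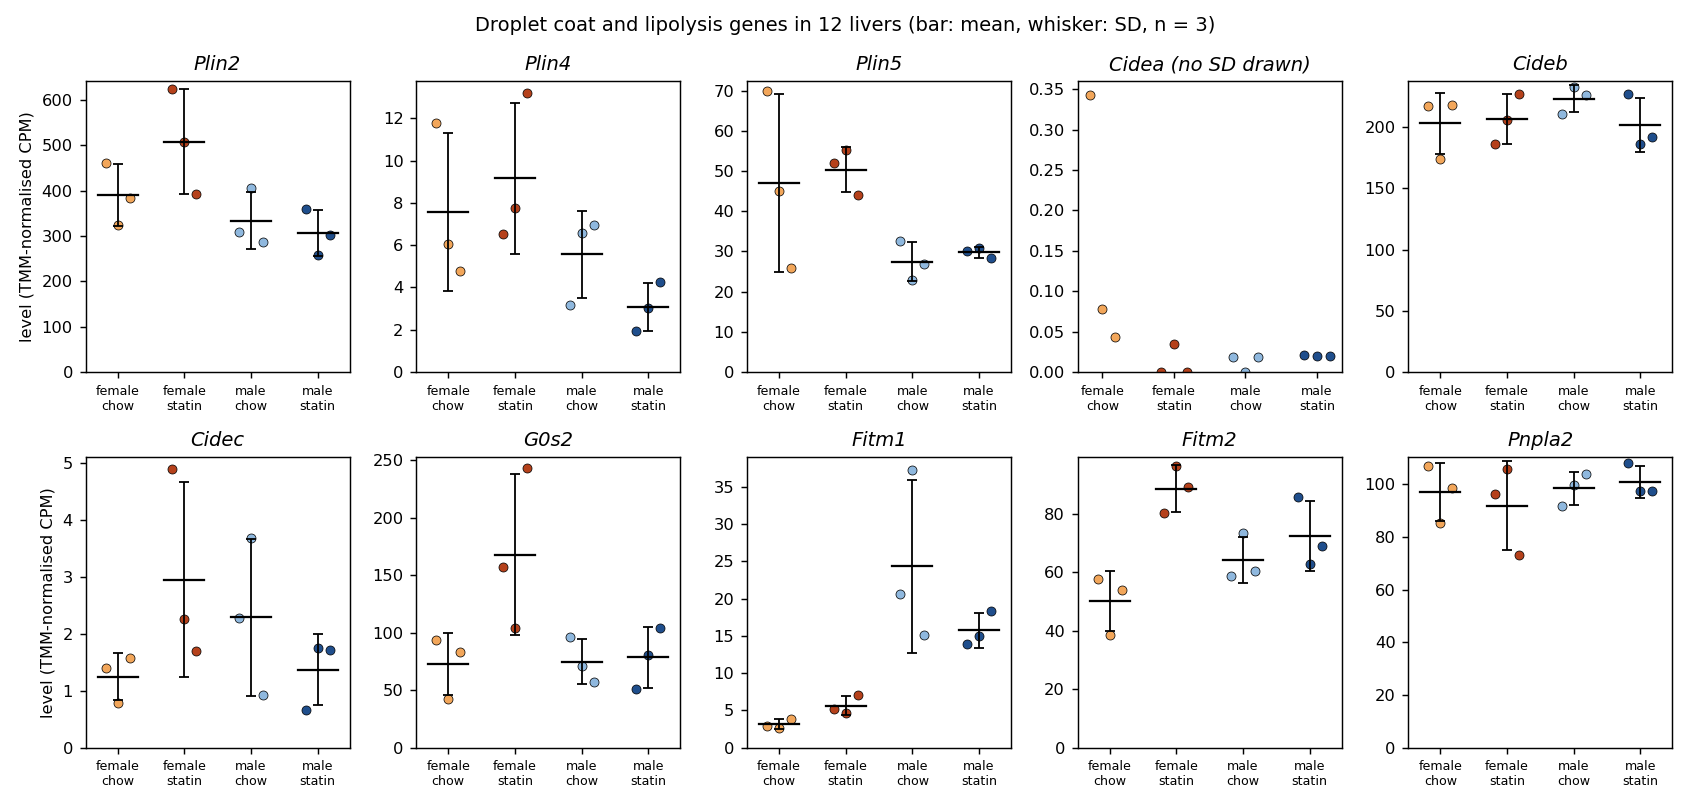
Level (TMM-normalised CPM, linear axis from 0, a scale of its own in each panel) of each gene in each of the 12 livers; points are livers, bars the mean and whiskers the SD of 3 livers (no SD for Cidea). The female statin livers lie above the female chow livers for Cidec, G0s2, Fitm1 and Fitm2, and Fitm1 is higher in all 6 male livers than in the 6 female livers.

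The FIT genes encode proteins of the endoplasmic reticulum that bind triglyceride. Fitm2, the form found in most tissues, was at 57.9, 38.5 and 54.0 CPM in the female chow livers and at 80.3, 96.4 and 89.2 in the female statin livers. All 3 statin livers lay above all 3 chow livers, with means of 88.6 ± 8.06 against 50.2 ± 10.3 CPM (SD, n = 3). The log2 fold change was 0.82 (SE 0.17, 95% interval 0.45 to 1.20), with an unadjusted p of 0.000452 and an adjusted p of 0.0998 in edgeR's test. In males Fitm2 was at 58.8, 73.4 and 60.5 CPM on chow and at 85.8, 62.8 and 69.0 on statin, groups that overlapped (log2 fold change 0.18, SE 0.17). Its direction in females was kept in all 23 alternative settings, with adjusted p between 0.00219 and 0.395.

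Fitm1, the second FIT gene, known best from muscle, was at 2.98, 2.61 and 3.90 CPM in female chow and at 5.25, 4.60 and 7.14 in female statin livers. The groups did not overlap, and the log2 fold change was 0.84 (SE 0.31), with an adjusted p of 0.339 in edgeR's test. In males it was at 20.6, 37.3 and 15.1 CPM on chow and at 13.9, 15 and 18.3 on statin. The male groups overlapped, 1 chow liver stood well above the rest, and the log2 fold change was -0.63 (SE 0.29, adjusted p 1 in edgeR's test). Without that liver, male chow replicate 2, it was -0.18.

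G0s2 encodes a small protein that binds ATGL and inhibits it. Its level was 93.4, 42.6 and 83.0 CPM in female chow livers and 157, 104 and 243 in female statin livers. The groups did not overlap, and the means were 168 ± 70.3 CPM on statin and 73.0 ± 26.8 on chow (SD, n = 3). This was a log2 fold change of 1.20 (SE 0.37, 95% interval 0.41 to 2.00, adjusted p 0.241 in edgeR's test). In males it was at 96.6, 70.8 and 57.5 CPM on chow and at 50.9, 80.9 and 104 on statin, with overlapping groups and a log2 fold change of 0.07 (SE 0.36). Lamb3, whose intron holds G0s2, had a log2 fold change of 1.04 (SE 0.43) in females at a mean of 6.23 CPM on statin and 3.03 on chow. Whether reads of both genes mix was not tested.

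For G0s2 and Fitm2 the call depended on the setting: both passed the adjusted threshold in females without a filter on low counts (adjusted p 0.0196 for each) and with DESeq2 (adjusted p 0.0449 and 0.00219), and in no other alternative. The range of the adjusted p over all alternatives was 0.0196 to 0.716 for G0s2. Those settings also called more of all genes, 148 and 270 in place of 12.

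Pnpla2, the ATGL gene, ranged from 73.1 to 108 CPM over the 12 livers. It was at 107, 85.2 and 98.6 CPM in female chow, 96.3, 106 and 73.1 in female statin, 91.6, 99.8 and 104 in male chow, and 108, 97.4 and 97.4 in male statin livers. All groups overlapped, and the 95% intervals of the log2 fold change on statin were -0.40 to 0.24 in females and -0.28 to 0.35 in males. Abhd5, which encodes the ATGL co-activator CGI-58, had log2 fold changes of -0.04 (SE 0.20) in females and 0.13 (SE 0.20) in males.

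The balance of inhibitor to lipase was read within each liver, as a ratio of levels per length that was added after the values were seen. It is a ratio of RNA levels that mostly followed G0s2, as Pnpla2 changed little (log2 fold change -0.08, SE 0.15, in females), and is no separate evidence. G0s2 to Pnpla2 was 3.03, 1.73 and 2.92 in female chow and 5.64, 3.42 and 11.5 in female statin livers. In females the statin livers lay above all chow livers (exact permutation test, two-sided, p 0.100, the smallest that 3 against 3 allows). Male livers ranged from 1.92 to 3.66 on chow and from 1.63 to 3.69 on statin and overlapped. The difference between the sexes in this response had a p of 0.140 in the exact permutation test over 400 exchanges. These swapped diet labels within each sex, which assumes no statin effect in either, so the p does not test the sex difference alone. Abhd5 to G0s2, the co-activator against the inhibitor, shares the G0s2 values and is no separate evidence. It was lower in all 3 female statin livers (0.0468, 0.0452 and 0.0201) than in the chow livers (0.0635, 0.156 and 0.0583). In males the groups overlapped, with means of 0.0689 on chow and 0.0737 on statin (exact permutation p 0.700), and the sex by statin comparison of the ratio gave p 0.0650 in the exact test over 400 exchanges.

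**Figure D3:**
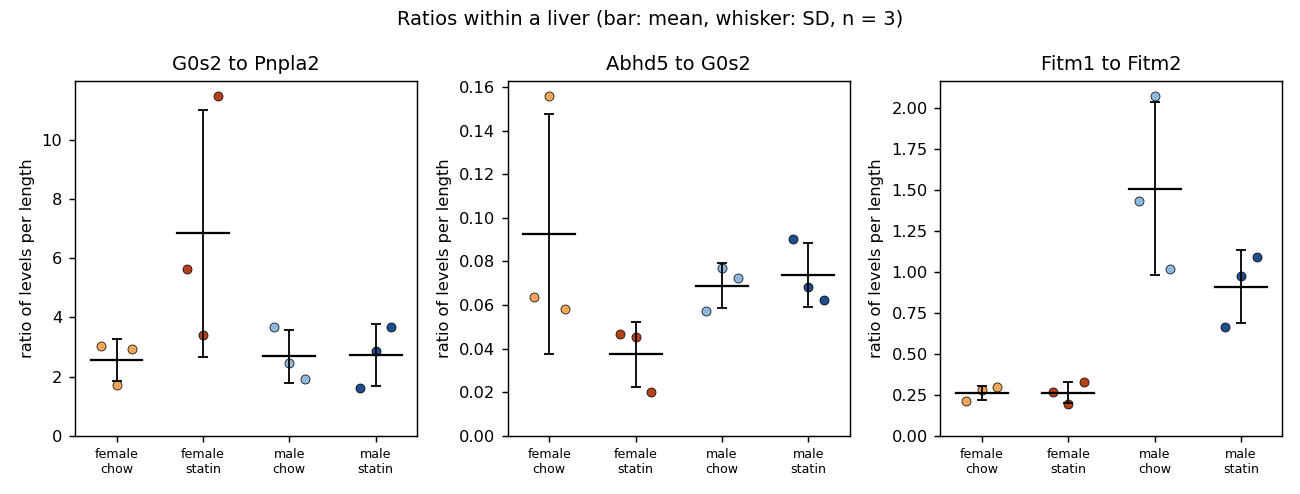
Ratios of levels per length within a liver, on linear axes from 0, for G0s2 to Pnpla2, Abhd5 to G0s2 and Fitm1 to Fitm2; points are livers, bars the mean and whiskers the SD of 3 livers. The female statin livers lie apart from female chow in the first and second panels, and the sexes lie apart in the last.

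None of the 3 perilipin genes passed the test on statin in either sex. Plin2, the coat protein of most hepatocyte droplets, was at 461, 325 and 384 CPM in female chow and at 623, 508 and 392 in female statin livers. The groups overlapped, with 1 statin liver inside the chow range (log2 fold change 0.38, SE 0.21, 95% interval -0.07 to 0.84, adjusted p 0.592 in edgeR's test). The log2 fold change was 0.22 without female statin replicate 1 and 0.55 without female statin replicate 3, where the unadjusted p was 0.0208 in edgeR's test; without female chow replicate 1 it was 0.53 (unadjusted p 0.0425). In males it was at 309, 405 and 286 CPM on chow and at 360, 259 and 302 on statin (log2 fold change -0.12, SE 0.21). Plin2 made up between 68.2% and 80.4% of the summed level per length of Plin1 to Plin5 in every liver.

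Plin5, which ties droplets to mitochondria, was at 70.0, 45.1 and 25.9 CPM in female chow and at 51.9, 55.1 and 44.1 in female statin livers. The chow livers spanned the statin livers, and the log2 fold change was 0.10 (SE 0.27). Without female chow replicate 1 it was 0.51 (unadjusted p 0.0448 in edgeR's test), and without female chow replicate 3 it was -0.19. In males Plin5 was at 32.5, 23.0 and 26.8 CPM on chow and at 30.0, 30.9 and 28.3 on statin, also overlapping (0.12, SE 0.27). Plin4, a perilipin best known from adipocytes and muscle, was at 11.8, 6.07 and 4.79 CPM in female chow, 6.52, 7.75 and 13.2 in female statin, 3.19, 6.56 and 6.94 in male chow and 1.95, 3.05 and 4.24 in male statin livers. Its groups overlapped within each sex, and its log2 fold changes were 0.27 (SE 0.41) in females and -0.85 (SE 0.42, unadjusted p 0.0644 and adjusted p 1 in edgeR's test) in males.

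Of the CIDE genes, Cideb is the form of the liver. It was at 217, 174 and 218 CPM in female chow, 186, 206 and 227 in female statin, 211, 233 and 226 in male chow and 227, 186 and 192 in male statin livers. These groups overlapped, and the log2 fold changes were 0.02 (95% interval -0.28 to 0.32) in females and -0.15 (95% interval -0.45 to 0.15) in males. Cideb made up between 97.9% and 99.8% of the summed level per length of the CIDE genes in every liver.

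Cidec, which encodes the protein that joins droplets in fat tissue and in fatty liver, was low. Its level was 1.39, 0.779 and 1.57 CPM in female chow and 4.89, 2.26 and 1.69 in female statin livers. The statin livers all lay above the chow livers, the lowest of them just above the highest chow liver (log2 fold change 1.24, SE 0.54, 95% interval 0.06 to 2.43, adjusted p 0.448 in edgeR's test). Without female statin replicate 1 the log2 fold change was 0.67. Male livers were at 2.27, 3.67 and 0.919 CPM on chow and at 0.655, 1.74 and 1.71 on statin, and overlapped (-0.74, SE 0.54), with -0.22 without male chow replicate 2 and -1.12 without male chow replicate 3. The summed level of the 7 adipocyte markers was at least 7.58 CPM in every liver and reached 25.3 in 1 female statin liver, 13.5 in females on chow, 14.7 in males on chow and 12.1 in males on statin; its part in these values was not tested. Most of that sum was Fabp4 (group means 6.14 to 11.6 CPM) and Adrb3 (2.72 to 5.31 CPM), while Adipoq reached at most 0.0773 CPM and Lep, Plin1 and Retn had 3 or fewer reads in every liver. Cfd had a mean of 1.05 CPM in male chow and was at 0 in the female statin livers.

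Cidea, known from brown fat and from fatty liver, was near or below the floor. It had 18, 4 and 2 reads in the female chow livers, 0, 2 and 0 in the female statin livers, 1, 0 and 1 in male chow and 1 read in each male statin liver. In females 2 chow livers were above 3 reads, and the count of 18 came from 1 of them; no fold change is given. In the fit without a filter its adjusted p was 0.363 in females.

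**Figure D4:**
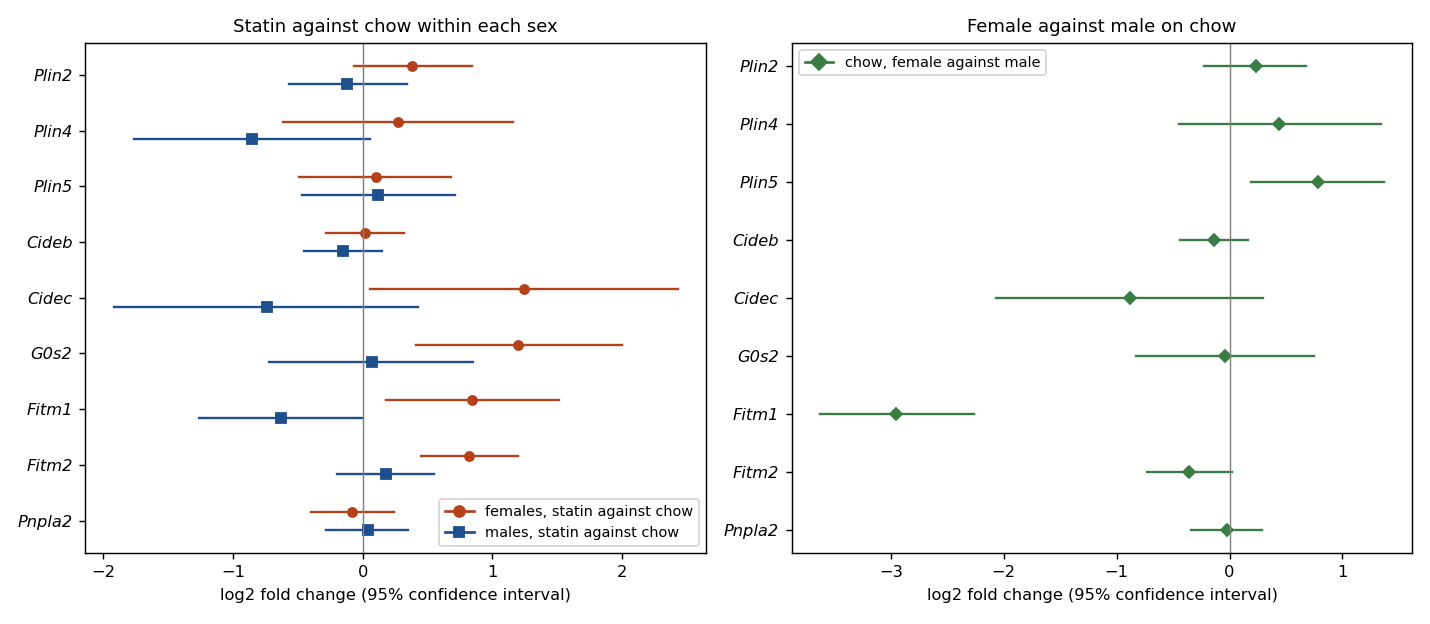
Log2 fold change of the 9 tested genes with 95% confidence intervals from edgeR: left, statin against chow in females (circles) and males (squares); right, female against male on chow (diamonds). In females the intervals of Cidec, G0s2, Fitm1 and Fitm2 lie above 0, and on the right that of Fitm1, from -3.63 to -2.26, lies far below 0.

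Whether the statin response differed between the sexes was tested with the interaction, the female log2 fold change minus the male one. No gene passed the adjusted threshold, among the 9 or among all 11968 (0%), and Cidec, G0s2, Fitm1 and Fitm2 were at an unadjusted p under 0.05, against 8.01% of all. Over the alternatives this held in 11 of 22 for G0s2, 17 of 21 for Cidec, 20 of 22 for Fitm2 and 22 of 22 for Fitm1. For Fitm1 the difference was 1.47 (SE 0.42, 95% interval 0.56 to 2.38, adjusted p 0.337 in edgeR's test), with the female mean 1.79-fold and the male mean 0.647-fold that on chow. An exact permutation test over 400 exchanges gave Fitm1 a p of 0.0150, where the smallest possible is 0.00500. The other 3 genes had p between 0.0750 and 0.145 in this test. Because it assumes no statin effect in either sex, it does not test the difference between the sexes alone. The differences were 1.99 (SE 0.77) for Cidec, 1.14 (SE 0.51) for G0s2 and 0.65 (SE 0.24) for Fitm2. Without a filter on low counts the Fitm1 difference had an adjusted p of 0.0358, within a range of 0.0358 to 0.709 over 22 alternatives. For Pnpla2, Cideb and Plin5 the intervals of the difference were -0.57 to 0.33, -0.25 to 0.59 and -0.85 to 0.81. Leaving out male chow replicate 2, the count at an unadjusted p under 0.05 was 1, and leaving out female chow replicate 2, female statin replicate 1 or male statin replicate 2 it was 2.

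On chow, Fitm1 was lower in females than in males by the widest margin of the 9 genes. Its means were 3.16 ± 0.664 CPM in females and 24.3 ± 11.5 in males (SD, n = 3). It fell by 2.95 on the log2 scale in females relative to males (SE 0.32, adjusted p 0.000112 in edgeR's test) and was the 1 of 9 genes that passed, against 10.4% of all tested genes and 4.49% in that direction. The highest female chow liver, at 3.90 CPM, lay below the lowest male chow liver, at 15.1. The call held in all 22 alternatives, with log2 fold changes between -3.20 and -2.50. Under the filter at 10 CPM, Fitm1 was kept only through its male livers, so that setting is no separate support. The order of the Fitm1 means was male chow, male statin, female statin and female chow; the male groups overlapped, and the other neighbours did not.

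The other genes were closer. Plin5 had means of 47.0 ± 22.2 CPM in female and 27.4 ± 4.82 in male chow livers (SD, n = 3), with 1 female liver inside the male range (log2 fold change 0.78, SE 0.27, adjusted p 0.0907 in edgeR's test). It passed without a filter, with DESeq2 and without female chow replicate 3, over a range of adjusted p from 0.0104 to 0.381, and without female chow replicate 1 the log2 fold change was 0.36. Plin5 and Fitm1 were the 2 genes at an unadjusted p under 0.05, against 24.9% of all; without male chow replicate 2 it was Fitm1 alone. Fitm2 was lower in each female chow liver than in any male chow liver (log2 fold change -0.36, SE 0.17, adjusted p 0.224 in edgeR's test), and with Fitm1 it made 2 genes without overlap, against 37.7% of all genes and 19.1% in that direction. Fitm1 to Fitm2, as a ratio of levels per length, was 0.210, 0.276 and 0.295 in female chow and 1.43, 2.07 and 1.02 in male chow livers, with no overlap and an exact permutation p of 0.100, the smallest possible. It was 0.267, 0.195 and 0.327 in female statin and 0.662, 0.976 and 1.09 in male statin livers.

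Some markers of other liver cells were higher in females on chow: 2 of 5 Kupffer cell, 3 of 5 stellate cell and 1 of 5 endothelial markers passed the adjusted threshold in edgeR's test, against 10.4% of all tested genes. The 5 Kupffer cell markers summed to between 420 and 514 CPM in female and 220 and 335 in male chow livers, the 5 stellate cell markers to between 309 and 379 and between 203 and 220, and the 5 endothelial markers to between 216 and 232 and between 134 and 181. Their part in the differences between the sexes was not tested; the skeletal muscle markers, of a tissue that expresses Fitm1, summed to between 0.391 and 0.801 CPM in the livers of all groups.

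Among 21 other droplet and lipolysis genes, of which 20 were tested (all but Plin1), none passed the adjusted threshold on statin in either sex. In females 5 were at an unadjusted p under 0.05, all with higher levels on statin, against 10.5% of all tested genes in either direction and 5.93% in that direction, and the median log2 fold change of the 20 was 0.05, beside 0.01 over all genes. Mgll, which encodes the lipase of the last step from monoglyceride, had means of 240 on statin and 138 CPM on chow in females without overlap (log2 fold change 0.80, SE 0.18, adjusted p 0.113 in edgeR's test). In males its means were 166 and 221 CPM (-0.41, SE 0.18, adjusted p 1), and the interaction was 1.21 (SE 0.25, adjusted p 0.238). Mgll passed in females without a filter and with DESeq2 (adjusted p 0.036 and 0.00313, within 0.00313 to 0.42 over 23 alternatives). The Mgll interaction passed under the same settings (adjusted p 0.0271 in edgeR's test and 0.00323 with DESeq2, within 0.00323 to 0.677 over 22 alternatives). The others, named after their values were seen apart from Hsd17b11, were the carboxylesterase genes Ces1d (1.24, SE 0.31) and Ces1g (0.58, SE 0.23), and Hsd17b11 (0.49, SE 0.20) and Hsd17b13 (0.32, SE 0.14), which encode droplet proteins. For both carboxylesterase genes 1 female statin liver stood above the rest. Ces1d had a median of 888 and a highest level of 2062 CPM in that group, and Ces1g 230 and 374 CPM. Ces1d also passed without a filter and with DESeq2 (adjusted p 0.00726 and 0.00593, within 0.00593 to 0.513 over 23 alternatives).

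Lipe, which encodes hormone-sensitive lipase, had log2 fold changes of 0.34 (SE 0.18) in females and -0.30 (SE 0.18) in males. Plin3, the widely expressed perilipin, had -0.23 (SE 0.16) in both, and Hilpda, another ATGL inhibitor gene, had 0.09 (SE 0.34) in females. Pnpla3, a relative of Pnpla2 that is induced with fatty acid synthesis, had -1.67 (SE 0.89) in females and 1.40 (SE 0.97) in males, and neither passed the test. On chow, 4 of the 20 differed between the sexes in edgeR's test, against 10.4% of all tested genes: Pnpla3 (4.79, SE 1.04, adjusted p 0.0126) and Tmem159 (1.15, SE 0.32, adjusted p 0.0394), which encodes a droplet assembly factor, were higher in females, and Mgll (-0.68, SE 0.18, adjusted p 0.0323) and Hsd17b11 (-0.73, SE 0.21, adjusted p 0.0415) were lower. All 4 lost the call without male chow replicate 2 (adjusted p 0.109 for Mgll, 0.0577 for Pnpla3, 0.125 for Hsd17b11 and 0.132 for Tmem159).

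**Figure D5:**
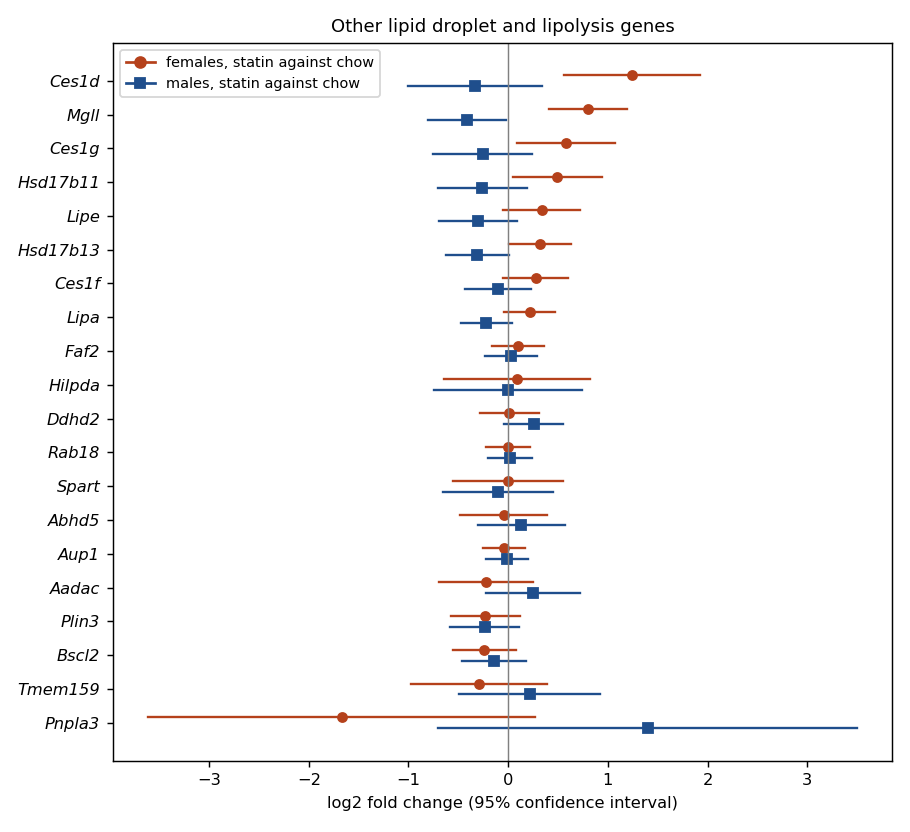
Log2 fold change, statin against chow, of 20 other droplet and lipolysis genes with 95% confidence intervals from edgeR, in females (circles) and males (squares), ordered by the female value. Ces1d, at 1.24, and Mgll, at 0.80, lead in females, and Pnpla3 has the widest intervals.

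Regulators of these genes were read from the same fit. Ppara, which encodes PPAR-alpha, had log2 fold changes of 0.42 (SE 0.25) in females and -0.14 (SE 0.25) in males, and Pparg 0.42 (SE 0.26) and -0.63 (SE 0.26, adjusted p 1 in edgeR's test). Creb3l3, a fasting-response factor of the liver, had 0.69 (SE 0.14, adjusted p 0.0951) in females and was lower in females than in males on chow (-0.75, SE 0.14, adjusted p 0.00468). Of 12 regulators tested none passed on statin in edgeR's test, but Creb3l3 in females passed with DESeq2 (adjusted p 8.68e-05) and without female statin replicate 2 (adjusted p 0.0304), within 8.68e-05 to 0.466 over 23 alternatives. Mlxipl, which encodes the sugar-responsive factor ChREBP and is named after its values were seen, had female means of 141 CPM on statin and 212 on chow without overlap (log2 fold change -0.59, SE 0.19, unadjusted p 0.00827 and adjusted p 0.261 in edgeR's test). In males its means were 174 CPM on statin and 217 on chow, also without overlap (-0.32, SE 0.19), and the interaction was -0.27 (SE 0.27). Of 18 PPAR-alpha target genes, 2 rose in females, the thioesterase gene Acot1 (2.14, SE 0.27, adjusted p 0.0306) and the peroxisome gene Pex11a (0.99, SE 0.16, adjusted p 0.0382), against 0.100% of all tested genes. At an unadjusted p under 0.05 were 15 of the 18, all with higher levels on statin, against 5.93% of all tested genes in that direction, and 13 had statin livers that all lay above the chow livers, against 6.03%. With 1 liver left out, 11 to 16 were at an unadjusted p under 0.05, and 0 to 5 passed the adjusted threshold; 7 passed without a filter and 9 with DESeq2. Both lost the call when each sex was fitted alone (adjusted p 0.314 and 0.324) and without female chow replicate 2 (0.109 and 0.244) or female statin replicate 3 (0.0784 and 0.141). All 18 had positive values in females, with a median of 0.85, and in males the median was -0.24. On chow, 15 of these 18 had negative values in females relative to males and 3 positive ones, with a median of -0.53. There, 5 were lower and 1 higher in females at an adjusted p under 0.05 in edgeR's test, against 10.4% of all tested genes. Without male chow replicate 2 the 5 became 2. The 8 fatty acid synthesis genes all had negative values in females, with a median of -1.51, and positive ones in males, with a median of 0.50. In females none of the 8 passed the adjusted threshold, while 4 passed without a filter and 3 with DESeq2. All 8 were at an unadjusted p under 0.05 in females, against 10.5% of all tested genes in either direction. For 7 of the 8 the groups did not overlap, against 12% of all in either direction. The study had already named Acly, Acaca, Acacb, Fasn, Scd1 and Elovl6 as lower in its statin-treated females from liver RNA. These counts are thus no separate evidence. Of the 8, 4 were at an unadjusted p under 0.05 without female chow replicate 1, and 5 without female chow replicate 2, female statin replicate 2 or female statin replicate 3. On chow, all 8 were higher in females than in males at an adjusted p under 0.05 in edgeR's test, against 10.4% of all tested genes, with a median log2 difference of 2.88. Of these, 5 passed without male chow replicate 2 or male chow replicate 3.

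For each tested gene the 3 genes of most similar pattern were taken by the smallest root mean square difference of mean-centred log2 levels over the 12 livers. For Plin2 they were Slc16a13, Unc13d and Ehhadh, at differences of 0.155 to 0.162, where the pattern of Plin2 itself had a root mean square of 0.352. Fitm1, with the widest pattern at 1.056, was nearest to Ces3a (0.361), Mcm10 (0.380) and Mup10 (0.391). Fitm2 was nearest to Fam102a, Kit and Ermp1 (0.155 to 0.167), and G0s2 to Pls1, Uck1 and Isoc2b (0.336 to 0.380). Pnpla2 was nearest to Fbxo7, Mxd4 and Dgat1, and Cideb to Ears2, Lman2 and Fggy, all within 0.084. Plin5 was nearest to Cyp2c38, Dkk3 and Lrpap1, Plin4 to Jak3, Serpina3n and Map3k13, and Cidec to Cxcr6, Zap70 and Ifit3b.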

How the data were processed

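RNA of 12 mouse livers was analysed in 4 groups of 3. Per the labels' processing notes and the study's methods, the authors used STAR 2.4.1a, HTSeq and edgeR 3.28.1 with build GRCm38. They deposited CPM values of 48526 genes and a table of 11968 genes described as TMM-normalised, whose values are whole read counts: 0 differed from the counts recovered from the CPM, of which 100% were whole within 0.02 reads. The counts were therefore tested as raw counts. The filter of the authors, above 1 CPM in at least 6 livers, was checked on the values; no gene can pass it through 1 group of 3 alone.

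All genes were fitted at once with edgeR 4.0.16 (quasi-likelihood test, TMM, full library totals, 4 groups, common dispersion 0.038, prior degrees of freedom 4.14), in R 4.3.3. Tests are two-sided, with Benjamini-Hochberg adjustment over all genes tested and a threshold of 0.05. A standard error was taken as the size of the log2 fold change over the root of its F value. For single values an exact permutation test used all 20 splits of the 6 livers of the 2 groups compared, and for the interaction all 400 exchanges of diet labels within the sexes. The latter assume no statin effect in either sex. Symbols matched 99.8% of the tested genes, and lengths are merged exons of GENCODE vM21. Alternatives were other scalings, no filter and one at 10 CPM, DESeq2 1.42.0, limma 3.58.1 on log2(CPM + 1) or with 0.1, a length correction, each sex alone, the replicate number as a block, and leaving out each liver. The fits were tested on simulated counts. The genes, lists and tests were chosen with earlier results of these data known. Named were the 10 genes, listed genes past the threshold in a comparison, 8 fixed genes and the 3 nearest genes of each tested gene; not every listed gene under this rule is reported. Depth per liver limits low genes such as Cidea. All value columns were used.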

Additional observations from a re-analysis of the deposited data

How the results depend on the processing

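Under the alternatives, the number of the 9 genes past the adjusted threshold in females went from 0 to 2 without a filter and with DESeq2, that of the interaction from 0 to 1 without a filter, and that of females against males on chow from 1 to 2 without a filter and with DESeq2. At an unadjusted p under 0.05, females went from 4 to 3 with both limma settings (Cidec at an unadjusted p of 0.0541 and 0.0606 in limma's test, log2 fold change 0.75 and 1.09), with the replicate block (Cidec at 0.0758 in edgeR's test) and with the stricter filter, and to 5 without a filter, Cidea included with a lower level on statin. Males went from 0 to 2 without a filter and with DESeq2 and to 1 with each sex alone and with the length correction, the interaction from 4 to 2 with the stricter filter, and sex on chow from 2 to 5 without a filter, Cidea included. The G0s2 interaction had an unadjusted p of 0.0526 with library size alone and 0.0507 with DESeq2's scaling in edgeR's test. That of Cidec was 0.0575 with the replicate block and that of Plin4 0.013 without a filter, in the same test. On chow, Fitm2 was at 0.0275 with library size alone and 0.035 with the length correction in that test. With 1 liver left out, the adjusted counts ranged from 0 to 0 in females, males and the interaction and from 1 to 2 on chow, and the unadjusted counts from 2 to 5 in females, 0 to 2 in males, 1 to 5 in the interaction and 1 to 3 on chow. The cause was not tested.

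Small log2 fold changes turned sign: Cideb in females (-0.02 with library size alone, -0.01 with the length correction), Hilpda in females (-0.02 with the pseudocount 0.1 and with the length correction), the interaction of Plin5 (0.08 with both limma settings, 0.04 with the replicate block), and on chow G0s2 (0.00) and Pnpla2 (0.03) with the stricter filter. With 1 liver left out, ranges in females were -0.07 to 0.76 for Plin4, -0.19 to 0.51 for Plin5, -0.07 to 0.10 for Cideb, -0.19 to 0.08 for Pnpla2, -0.27 to 0.08 for Abhd5 and -0.27 to 0.42 for Hilpda. In males they were -0.25 to 0.05 for Plin2, -0.19 to 0.30 for G0s2, -0.02 to 0.08 for Pnpla2 and -0.42 to 0.00 for Ppara. For the interaction they were -0.31 to 0.39 for Plin5 and -0.24 to 0.03 for Pnpla2, and on chow -0.04 to 0.69 for Plin4, -0.27 to 0.23 for G0s2 and -0.11 to 0.06 for Pnpla2.

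Over all genes, 12 were called in females, 148 without a filter, 270 with DESeq2, 2 with the stricter filter and 0 with each sex alone. In males 0 were called and 4 with DESeq2, in the interaction 0, 103 without a filter and 130 with DESeq2, and on chow 1250, 771 with the stricter filter and 1946 with DESeq2. Leaving out 1 liver, these counts ranged from 0 to 75, 0 to 0, 0 to 14 and 635 to 1586. At an unadjusted p under 0.05, males had 234 genes, 630 without a filter. The replicate numbers did not pair the livers: deviations from group means of same-numbered livers had a mean correlation of -0.108 over 18 pairs, against 0.0576 over 36 others. In the fit with the replicate block, 5 genes were called in females, and no adjusted call among the 9 genes was changed; Pex11a in females and Mgll, Hsd17b11 and Tmem159 on chow no longer passed.

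Of the 12 livers, leaving out 1 ended the call of Acot1 for 7 and of Pex11a for 10, and on chow that of Mgll for 5, Pnpla3 for 2, Hsd17b11 for 6 and Tmem159 for 6, with adjusted p of at most 0.244. Pex11a also lost its call with library size alone, with the stricter filter and with each sex alone, Acot1 with each sex alone, and Tmem159 with library size alone. Of the 9 genes Cidec and Plin4, both low, had the widest standard errors in females (0.54 and 0.41), and Cidea cannot be compared at this depth.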
